A study of Mus musculus with 8 samples.

Results

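The transcripts described here encode 8 proteins that carry signals from antigen receptors and innate receptors into leukocytes. They are the adaptors Fcer1g (FcRγ), Tyrobp (DAP12), Hcst (DAP10) and Cd247 (CD3ζ), the kinases Syk and Zap70, and the membrane scaffolds Lat2 (NTAL) and Lat. They were taken by symbol, as 8 of the 27998 genes in the deposited list, and each symbol matched 1 gene. They were chosen by earlier results of these data, their UMI levels in the tumor-infiltrating cell classes and in CD8 T cells split by granzyme UMIs, so every level and ratio given for them is a description and none was tested.

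CD45+ cells were sorted from B16-OVA melanomas, which carry the model antigen ovalbumin, in C57BL/6 mice, and were profiled by droplet single-cell RNA-seq of transcript 5′ ends. The paper describes the sorted cells as enriched for CD8+ tumor-infiltrating cells, so counts per cell class are not the makeup of the tumors. The treated mice had received adoptive cell transfer (ACT) of OT1 cells, CD8+ T cells with a transgenic receptor for an ovalbumin peptide, without lymphodepletion, so the T cells sorted from these tumors mix transferred and host cells. The paper's methods describe 2 infusions of OT1 cells, given on different days. Of the 8 libraries, 2 came from ACT of untransduced OT1 cells, taken 5 and 12 days after transfer. Another 3 came from combination ACT (PD1d/IL-2v/IL-33 in the plots), taken after 5, 12 and 26 days. In the paper this is a 1:1 mix of OT1 cells engineered with PD1d and IL-2v and OT1 cells engineered with PD1d and IL-33. The other libraries were PD1d/IL-2v ACT and PD1d/IL-33 ACT, both taken only after 12 days, and tumors of non-treated mice, labelled day 5. PD1d is a secreted PD-1 ectodomain that acts as a decoy for PD-1 ligands, IL-2v is an IL-2 variant that does not engage CD25, and IL-33 is an alarmin cytokine. The untransduced OT1 cells carried none of these genes. Tumors of several mice were pooled per condition according to the study's methods. Each condition and day is 1 library, so differences between mice cannot be seen. Day 26 and the non-treated tumors are given by the labels alone.

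Immunoreceptor tyrosine-based activation motifs (ITAMs) are paired tyrosines in the cytoplasmic tails of adaptors that sit beside receptors lacking a signalling tail of their own. Once Src-family kinases phosphorylate both tyrosines, the tandem SH2 domains of Syk or Zap70 dock there, and the kinases phosphorylate the scaffolds Lat2 or Lat. Cd247 serves the T cell receptor with the CD3 chains. Fcer1g serves Fc receptors and, in NK cells, natural cytotoxicity receptors, and Tyrobp serves activating NK receptors and the TREM family of myeloid cells. Hcst has no ITAM but a tyrosine motif that recruits PI3 kinase, and it is the partner of NKG2D. Here Cd247, Zap70 and Lat are called the T cell set, though NK cells express them too. Fcer1g, Tyrobp, Syk and Lat2 are known from myeloid and NK cells, and of these Syk and Lat2 also from B cells.

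By these motifs Hcst and Cd247 differ from the other adaptors, while Fcer1g and Tyrobp each have 1 ITAM of equal spacing. The coding bases of the motifs of the 4 adaptors are shown. They were read from the GENCODE vM1 transcripts of mouse build NCBIM37, 5′ to 3′, and the capitals mark the codons of each tyrosine and of the leucine, isoleucine or methionine placed 3 residues after it.
Fcer1g: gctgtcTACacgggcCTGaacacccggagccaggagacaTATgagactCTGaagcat
Tyrobp: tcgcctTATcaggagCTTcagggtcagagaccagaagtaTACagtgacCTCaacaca
Hcst: agagtcTACatcaacATGcctggc
Cd247, residues 72 to 86: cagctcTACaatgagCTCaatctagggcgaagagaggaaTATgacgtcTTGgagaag
Cd247, residues 111 to 126: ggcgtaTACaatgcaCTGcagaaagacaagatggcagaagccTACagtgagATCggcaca
Cd247, residues 142 to 156: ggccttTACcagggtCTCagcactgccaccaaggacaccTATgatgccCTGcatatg

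Fcer1g encoded 86 residues with 1 ITAM at residues 65 to 79, Tyrobp encoded 114 residues with 1 at residues 92 to 106, and the Cd247 transcript used encoded 164 residues with 3. Hcst encoded 79 residues with a tyrosine and a methionine at residues 72 to 75 and no ITAM. The search allowed 6 to 12 residues between the parts of an ITAM, and 7 were found in Fcer1g and Tyrobp and 7, 8 and 7 in Cd247.

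In RefSeq coordinates of GRCm38.p6, Fcer1g lies at chr1:171229572-171234349, Cd247 at chr1:165779952-165871153, Zap70 at chr1:36761798-36782821, Syk at chr13:52582610-52648792, Lat2 at chr5:134600103-134619783 and Lat at chr7:126363827-126369705. Tyrobp at chr7:30413782-30417582 and Hcst at chr7:30417712-30419854 are neighbours on opposite strands, with 129 bases between their facing ends. Their levels nevertheless followed different cell classes, as given next.

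A CD8 T cell was a barcode with 2 or more UMIs (unique molecular identifiers, 1 per captured transcript) of Cd3d, Cd3e and Cd3g together, 1 or more of Cd8a and Cd8b1, none of Cd4 and at most 1 each of the myeloid and B cell markers. The CD4 T, NK, myeloid and B gates were built alike from raw marker UMIs. Of 15700 barcodes 12821 passed the filters, from 201 to 3655 per library, and 10339 fell in a gate, with 4934 CD8 T, 1185 CD4 T, 2716 NK, 1378 myeloid and 126 B cells. Libraries held 1387032 to 24917112 UMIs, and the smallest CD8 T groups were those of day 12 untransduced ACT with 40 cells and of non-treated tumors with 77. Levels are UMIs summed over the cells of a class and library and scaled to 1000000 UMIs (CPM), with exact 95% Poisson intervals that cover counting error only. The sum of the 3 CD3 genes was 3222 CPM in CD8 T cells, 14.6 in NK cells and 0 in myeloid cells, where the gate demanded it. The 6 NK markers were demanded of NK cells but not excluded from T cells, and their sum in CD8 T cells ran from 13.9 to 173.1 CPM over the libraries against 2747 in NK cells. The labels name NKT cells among the sorted cells, and this gate does not separate them from other CD8 T cells. Lyz2, an abundant lysozyme of myeloid cells, stood at 8663 CPM in myeloid cells, 9.37 in CD8 T, 10.5 in CD4 T and 8.54 in NK cells.

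Across all libraries the 8 members divided by cell class (plot of levels by class and library). Levels and ratios over all libraries weigh the libraries unequally. Day 26 combination ACT gave 2235 of the 4934 CD8 T cells but 82 of the 2716 NK cells. Day 5 combination ACT gave 476 and 974. The adaptors Fcer1g and Tyrobp were high in NK cells, at 2390.2 and 2737 CPM, and in myeloid cells, at 3614 and 3176 CPM. CD8 T cells held 96.2 CPM of Fcer1g and 38.4 of Tyrobp, CD4 T cells 25.1 and 34.1, and B cells 49.5 and 77.1. Every NK library and every myeloid library lay above every T cell library for both adaptors. In NK cells the libraries ran from 1579.8 to 3077 CPM for Fcer1g and from 2139.6 to 3458 for Tyrobp, and in the 7 libraries with 20 or more myeloid cells from 2568 to 4688 and from 2467 to 3659.

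**Figure D1:**
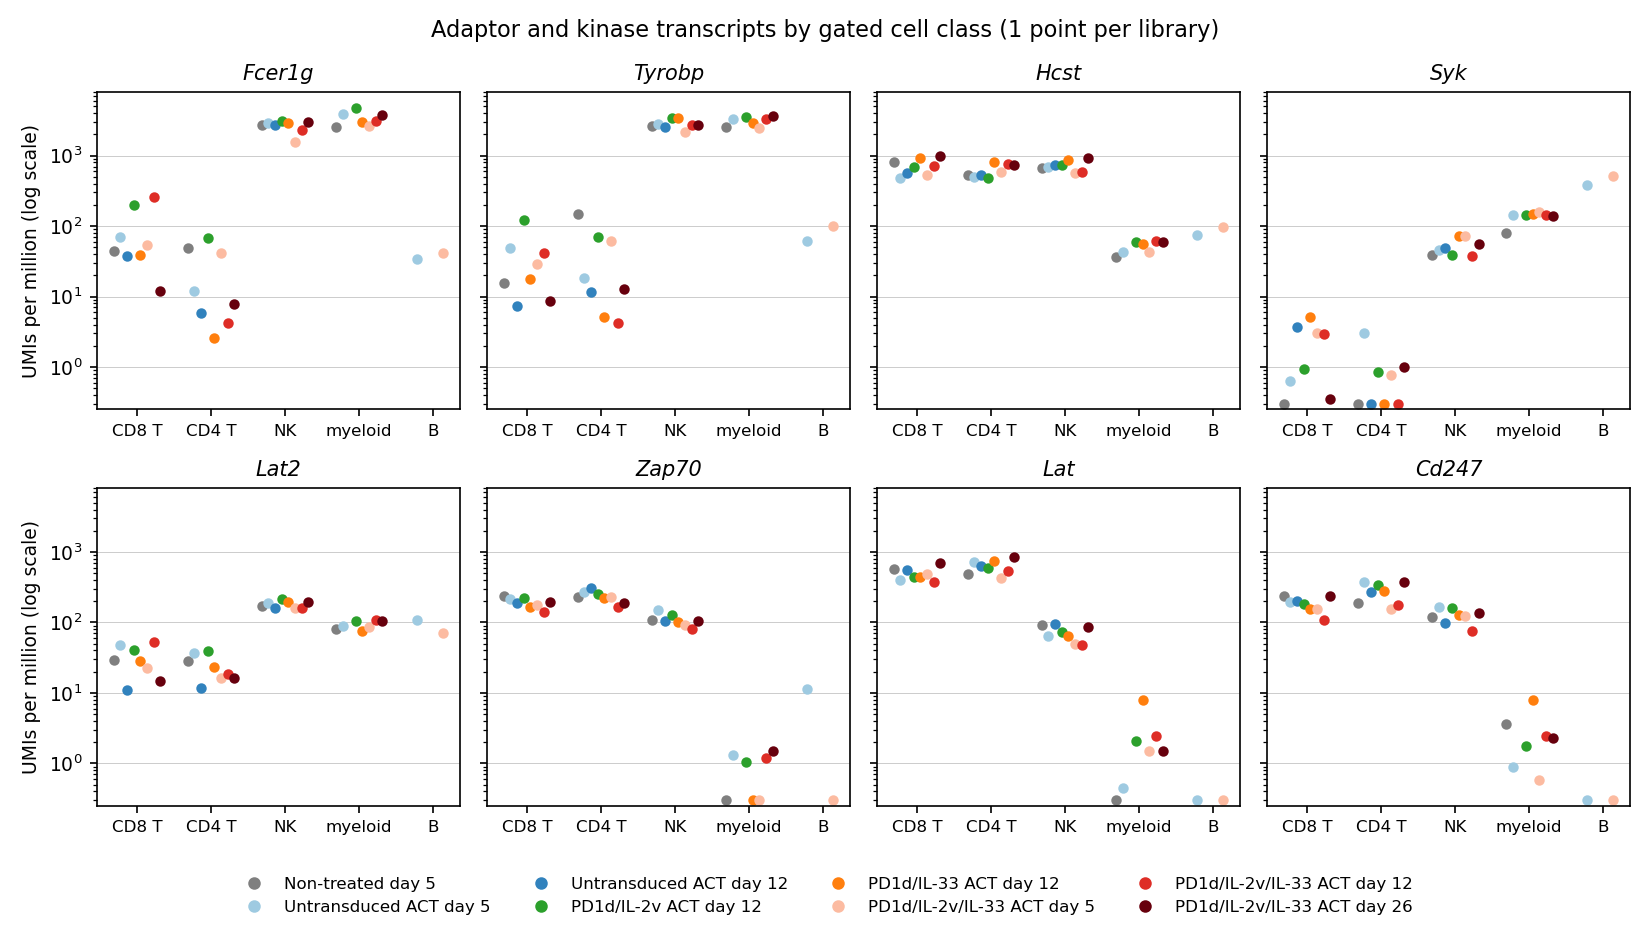
Level of each of the 8 genes (CPM, log axis) in each cell class, with 1 point per library that has 20 or more cells of the class; levels of 0 are drawn at the foot of the axis. Fcer1g and Tyrobp sit above 1500 CPM in every NK and myeloid library, while Hcst, Lat, Zap70 and Cd247 fall to 61.4 CPM or less in every myeloid library shown.

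Hcst, the partner of NKG2D, was high in T and NK cells and low in myeloid and B cells, unlike its neighbour Tyrobp. It reached 774 CPM in CD8 T cells, 628 in CD4 T cells and 648 in NK cells, against 51.0 in myeloid cells and 67.9 in B cells. After thinning each cell to 2000 UMIs, 76.9% of CD8 T cells and 10.9% of myeloid cells had a Hcst UMI, and without thinning 96.3% and 34.4%.

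Outside NK cells the kinases sorted almost completely. Syk was highest in B cells, at 385 CPM, and stood at 145 in myeloid cells, 53.1 in NK cells and 1.51 in CD8 T cells, where only 58 UMIs were counted. Zap70 stood at 189 CPM in CD8 T cells, 221 in CD4 T cells, 108 in NK cells and 0.95 in myeloid cells, where 12 UMIs were counted. Of the UMIs of both kinases, Syk made up 0.79% in CD8 T cells, 32.9% in NK cells, 99.4% in myeloid cells and 98.6% in B cells. NK cells were thus the class in which UMIs of both kinases were common, and their Syk share ran from 23.2% to 44.6% over the libraries.

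The scaffolds also separated T cells from myeloid and B cells, while NK cells held more Lat2 than Lat. Lat stood at 525 CPM in CD8 T cells, 653 in CD4 T cells, 60.1 in NK cells and 1.66 in myeloid cells, and no Lat UMI was counted in B cells. Lat2 stood at 179 CPM in NK cells, 119 in B cells, 97.0 in myeloid cells, 31.0 in CD8 T cells and 24.0 in CD4 T cells. Lat2 made up 5.57% of the UMIs of both scaffolds in CD8 T cells, 74.9% in NK cells and 98.3% in myeloid cells. Cd247, the adaptor of the T cell receptor, stood at 189 CPM in CD8 T cells, 295 in CD4 T cells and 129.7 in NK cells, against 1.58 in myeloid cells.

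Ratios between classes are log2 ratios after adding 10 CPM to each level, and a gene was counted as past 2-fold where the ratio was 1 or more in size and the compared groups together held 50 or more UMIs. Between NK and CD8 T cells 5 of the 8 members were past 2-fold, against 3.81% of the 11114 genes counted, a share set beside members whose levels had guided their choice. Higher in NK cells were Tyrobp at 5.83, Fcer1g at 4.50, Syk at 2.45 and Lat2 at 2.21, and lower was Lat at -2.93. Within the single libraries the ratio of Fcer1g ran from 3.09 in day 12 combination ACT to 7.12 in the same treatment at day 26, and that of Lat from -3.08 to -2.43. Zap70 at -0.75 and Cd247 at -0.51 were lower in NK cells in 8 of 8 libraries but stayed within 2-fold, apart from Zap70 in 1 library. Hcst was higher in NK cells in 4 of 8 libraries, with ratios from -0.29 to 0.50.

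Between myeloid and CD8 T cells all 8 members were past 2-fold, against 18.4% of 11470 genes. Tyrobp at 6.04, Fcer1g at 5.09, Syk at 3.76 and Lat2 at 1.38 were higher in myeloid cells, and Lat at -5.52, Zap70 at -4.18, Cd247 at -4.10 and Hcst at -3.68 were lower. Each kept its side of 2-fold in the 7 libraries with 20 or more myeloid cells except Lat2, which passed in 5 of 7 with ratios from 0.77 to 2.21. The median ratio of all genes was -0.16 here, so the positive values stand slightly further from the bulk of genes than from 0.

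Other genes of the same pathways were read from 3 lists. Of 18 genes that act next to the T cell receptor, 14 were lower and 0 higher in myeloid than in CD8 T cells, with a median log2 ratio of -2.39. They were led by the adaptor Sh2d2a at -5.56, the Src-family kinase Lck at -5.48 and the adaptor Skap1 at -4.79. Of 15 genes of innate and B cell ITAM signalling, 11 were higher and 0 lower in myeloid cells, with a median of 1.67, among them the Src-family kinases Lyn at 4.81 and Fgr at 3.96. Of 15 receptors that pair with FcRγ, DAP12 or DAP10, 14 had enough UMIs, 12 were higher and 2 lower, and Clec4e (Mincle) at 5.71 and the Fc receptor Fcgr3 at 5.39 led them.

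NK cells stood between these patterns. Of the T cell receptor list 6 genes were lower than in CD8 T cells, led by Themis at -3.26 and the phospholipase Plcg1 at -2.66, while the Tec kinase Txk was higher at 1.87, with 404 against 103 CPM. The median of that list was -0.14 beside 0.01 for all genes. In the innate list 10 genes had enough UMIs and 3 were higher, the adaptor Clnk at 2.36, the phospholipase Plcg2 at 2.10 and Lyn at 2.05. Of the 4 receptors with enough UMIs 3 were higher, Fcgr3 at 2.95, Klrc2 at 2.04 and Klrk1 (NKG2D, the partner of Hcst) at 1.46.

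Within CD8 T cells Fcer1g, Tyrobp and Lat2 varied more between libraries than Hcst and the T cell set did (plot of Fcer1g and Tyrobp in CD8 T cells). Their highest level was 22.0, 16.7 and 4.75 times their lowest. The lowest Tyrobp and Lat2 levels, both in day 12 untransduced ACT, rest on 2 and 3 UMIs. Fcer1g stood at 262 CPM [250 to 274] in day 12 combination ACT and 201 [189 to 213] in PD1d/IL-2v ACT. It stood at 69.7 in day 5 untransduced ACT, 54.1 in day 5 combination ACT, 44.7 in non-treated tumors, 38.7 in PD1d/IL-33 ACT and 37.2 in day 12 untransduced ACT. The lowest level was 11.9 CPM [10.2 to 13.8] in day 26 combination ACT. The 2 libraries from day 12 tumors that received IL-2v-secreting OT1 cells were thus above all others. The 4 levels from 37.2 to 54.1 did not differ beyond counting error between neighbours in that order.

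Tyrobp had another order. It was highest in PD1d/IL-2v ACT, at 124 CPM [115 to 134], followed by day 5 untransduced ACT with 49.3 and day 12 combination ACT with 41.0 [36.3 to 46.2]. Day 5 combination ACT held 29.3 CPM, PD1d/IL-33 ACT 17.7, non-treated tumors 15.6, day 26 combination ACT 8.56 and day 12 untransduced ACT 7.43, where only 2 UMIs were counted. The last 4 did not differ beyond counting error between neighbours in the order. The intervals of PD1d/IL-33 ACT [12.5 to 24.3] and day 26 combination ACT [7.12 to 10.2], which are not neighbours, did not overlap. They treat UMIs as independent, while the highest cell held 11 of 38 Tyrobp UMIs in the former and 16 of 123 in the latter.

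**Figure D2:**
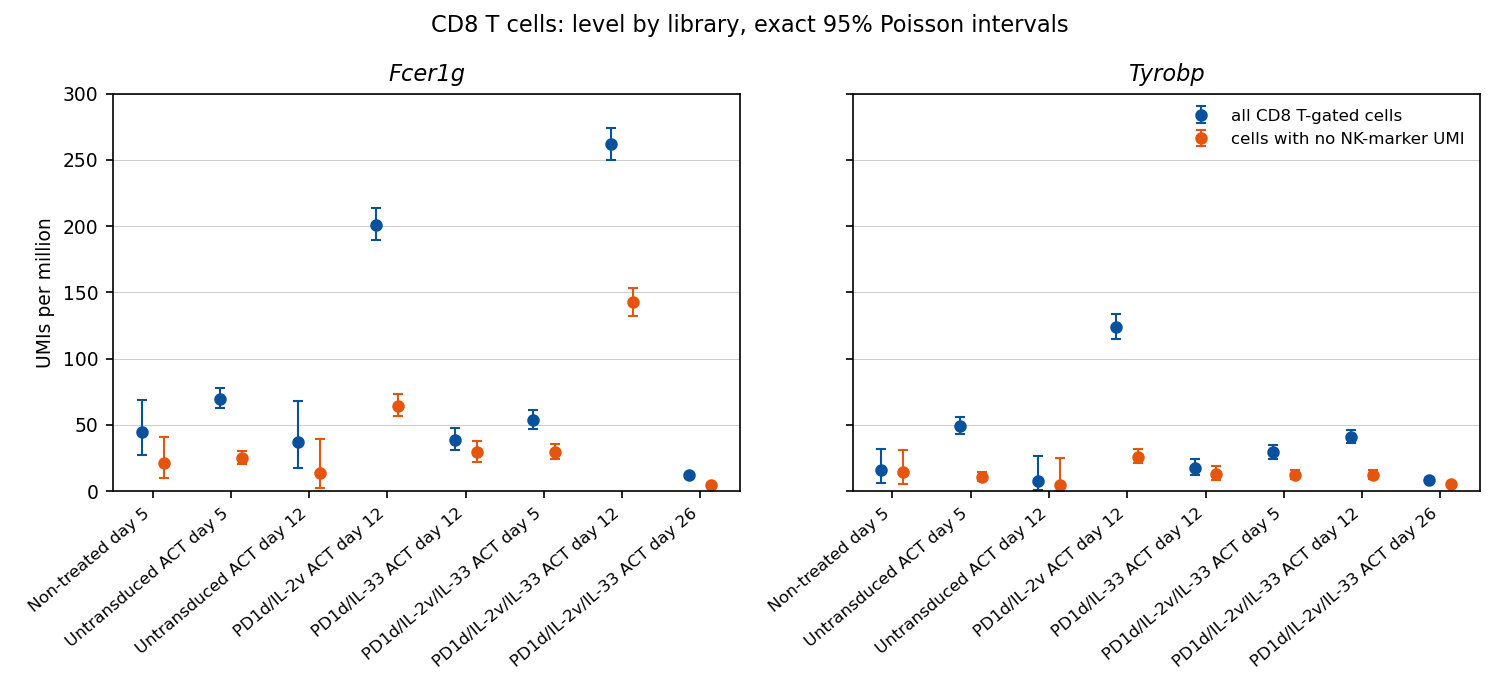
Fcer1g and Tyrobp levels (CPM, linear axis) in the CD8 T cells of each library, for all CD8 T cells and for those with no UMI of the 6 NK markers; bars on the points are exact 95% Poisson intervals. Fcer1g of day 12 combination ACT stays above every other library in both sets of cells, at 262 and 142 CPM, while Tyrobp of PD1d/IL-2v ACT lies at 124 and 26.0 CPM.

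NK-marker UMIs were high in some libraries with high adaptor levels, but did not follow the adaptors throughout. Ncr1 (NKp46), an NK receptor that signals through Fcer1g and Cd247, stood in CD8 T cells at 21.2 CPM in PD1d/IL-2v ACT, 18.6 and 10.5 in untransduced ACT at days 12 and 5, and between 1.18 and 3.42 in the other 5 libraries. Klrb1c (NK1.1) stood at 29.7 CPM in day 12 combination ACT and 28.8 in PD1d/IL-2v ACT. Over all libraries Klra7 held the most UMIs of the 6 markers in CD8 T cells, at 28.5 CPM. Klrb1c stood at 14.4 CPM and Ncr1 at 5.77. Klra4, Klra8 and Klra9 stood at 3.86, 4.46 and 4.07 CPM. In a reading chosen after seeing the data, CD8 T cells with any UMI of the 6 NK markers were left out. Day 12 combination ACT then held 142 CPM of Fcer1g [132 to 153] and 12.3 of Tyrobp, and PD1d/IL-2v ACT 64.6 [57.0 to 73.1] and 26.0. The other 6 libraries held 4.63 to 29.5 CPM of Fcer1g and 4.51 to 14.4 of Tyrobp. The removed cells were rich in both adaptors, with 638 and 132 CPM in the 135 cells of day 12 combination ACT and 582 and 397 CPM in the 156 cells of PD1d/IL-2v ACT. Leaving them out moved Fcer1g of both libraries and Tyrobp of both by over 1.5 times.

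The size of these levels can be set against carried RNA. If each Lyz2 UMI in CD8 T cells came with myeloid RNA in the proportions of the same library's myeloid cells, it would bring 0.42% of the Fcer1g seen in day 12 combination ACT and 27.5% of that seen at day 26. For Tyrobp this share ran from 2.86% to 37.0% over the libraries. If each Ncr1 UMI came with NK RNA in the proportions of the same library's NK cells, it would bring 15.3% of the Fcer1g in day 12 combination ACT, 41.4% in PD1d/IL-2v ACT and 59.6% in day 5 untransduced ACT. For Tyrobp the shares were 115.7%, 75.5% and 82.6%. Over all 8 libraries they ran from 14.7% to 196% for Fcer1g and from 41.2% to 931% for Tyrobp, both highest in day 12 untransduced ACT, where 5 Ncr1 UMIs were counted. Reckoned from Klrb1c they were 82.2% and 59.1% for Fcer1g in combination and PD1d/IL-2v ACT, and for Tyrobp 621.5% and 107.8%, and over all libraries they reached 185% for Fcer1g and 879% for Tyrobp. The 2 NK markers therefore gave different amounts, and whether the adaptor UMIs of CD8 T cells came from NK cells, doublets or free RNA was not tested. No such reckoning was made from the Klra genes.

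The balance between the adaptors differed between classes. Tyrobp made up 53.4% of the UMIs of Tyrobp and Fcer1g in NK cells, with libraries from 47.5% to 57.5%, and 46.8% in myeloid cells, with libraries from 42.7% to 51.5%. In CD8 T cells of day 12 combination ACT it made up 13.6% [12.1 to 15.1, exact binomial], the lowest share of the 6 CD8 T libraries with 50 or more UMIs of the pair. The other 5 also lay below every NK and myeloid library, at 31.4% in PD1d/IL-33 ACT, 35.1% in day 5 combination ACT, 38.1% [35.8 to 40.5] in PD1d/IL-2v ACT, 41.4% [37.3 to 45.6] in day 5 untransduced ACT and 41.8% [36.1 to 47.7] in day 26 combination ACT, the last 2 with intervals that reach into the NK and myeloid range. Without NK-marker cells the share was 7.96% in day 12 combination ACT, 28.7% in PD1d/IL-2v ACT and 53.3% in day 26 combination ACT.

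**Figure D3:**
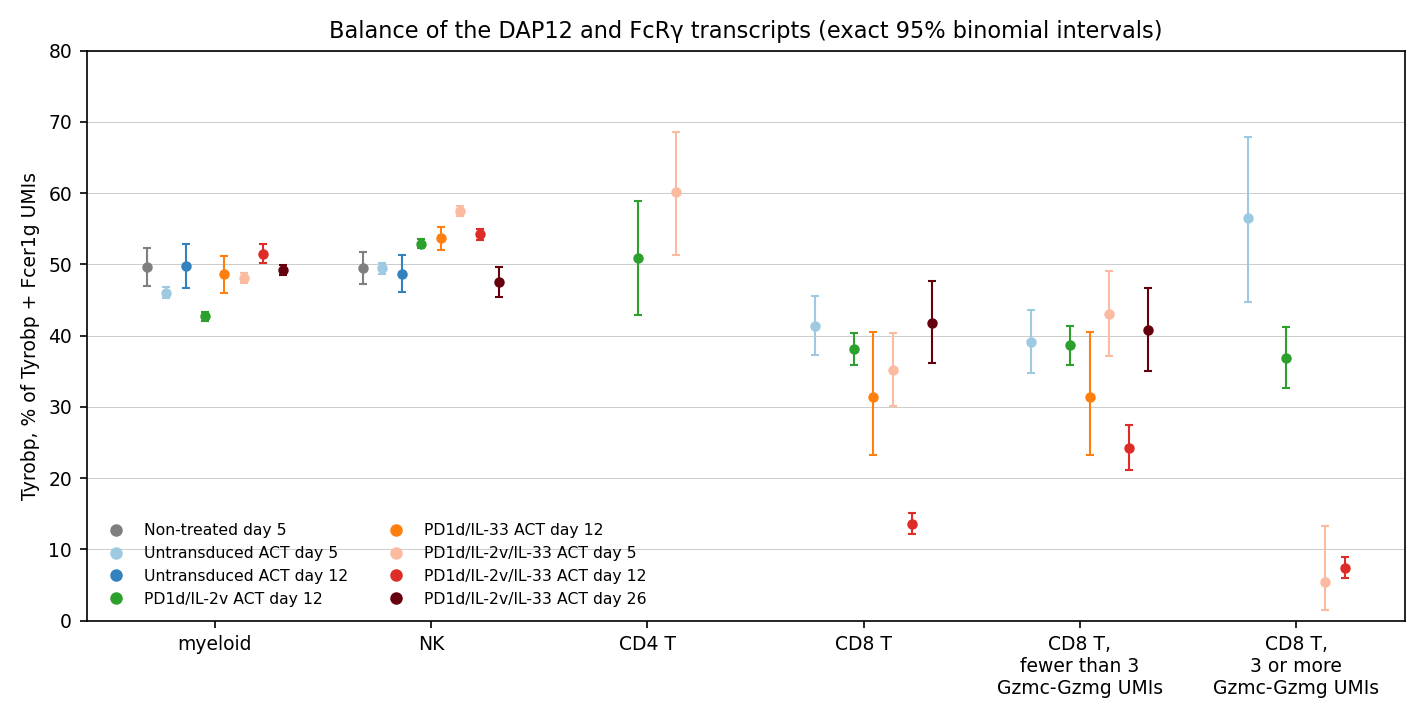
Tyrobp as a percent of the UMIs of Tyrobp and Fcer1g together, by cell class and library, for groups with 50 or more UMIs of the pair; bars are exact 95% binomial intervals. NK and myeloid libraries lie between 42.7% and 57.5%, and the CD8 T libraries shown lie between 13.6% and 41.8%, lowest in day 12 combination ACT.

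The T cell set and Hcst moved less. Over the 8 libraries CD8 T cells held 484 to 980.4 CPM of Hcst (median 699), 378 to 686 of Lat (median 469), 139 to 239 of Zap70 (median 191) and 108 to 239 of Cd247 (median 189). The highest level was 2.03 times the lowest for Hcst, 1.81 times for Lat, 1.72 times for Zap70 and 2.21 times for Cd247. Day 12 combination ACT was the lowest library for Lat, Zap70 and Cd247, though for Lat it did not differ beyond counting error from day 5 untransduced ACT. Lat2 ran from 11.1 CPM [2.30 to 32.6] in day 12 untransduced ACT to 52.9 in day 12 combination ACT. It stood at 48.0 in day 5 untransduced ACT and 40.5 in PD1d/IL-2v ACT. Syk stayed between 0 and 5.13 CPM, and its 0 in non-treated tumors allows up to 8.24 CPM.

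As UMI counts, Fcer1g passed Cd247 in CD8 T cells of 2 libraries. It made up 70.7% of the UMIs of both in day 12 combination ACT and 52.1% in PD1d/IL-2v ACT, against 26.5% in day 5 untransduced ACT and 4.74% in day 26 combination ACT. Without NK-marker cells it made up 55.8% [53.1 to 58.5] in day 12 combination ACT and 25.6% [22.9 to 28.4] in PD1d/IL-2v ACT, where it no longer passed Cd247. These are shares of captured transcripts, and transcripts of different genes may be captured with different efficiency.

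The Fcer1g UMIs lay in few cells. In day 12 combination ACT, 165 of 711 CD8 T cells had one, the highest cell had 77, and the top 5% of cells (36 cells) held 64.5% of them. In PD1d/IL-2v ACT the top 5% held 62.7%. Among Fcer1g-positive CD8 T cells of day 12 combination ACT, 16.4% also had a Tyrobp UMI, against 4.21% of the rest. Over all libraries 9.64% of the 560 CD8 T cells with Fcer1g had a Lyz2 UMI against 6.40% of the others, with median depths of 8722.5 and 5802.5 UMIs.

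After thinning to 2000 UMIs per cell, 15.05% [12.5 to 17.9] of CD8 T cells of day 12 combination ACT and 16.0% [13.0 to 19.3] of PD1d/IL-2v ACT had a Fcer1g UMI, and 23.2% and 27.4% without thinning. The thinned share was 9.69% in day 5 untransduced ACT, 6.30% in day 5 combination ACT, 5.57% in PD1d/IL-33 ACT and 1.34% in day 26 combination ACT. It was 96.5% in NK cells and 98.3% in myeloid cells. Combination and PD1d/IL-2v ACT therefore had overlapping shares of positive cells, while the level over all CD8 T cells was higher in the former.

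CD8 T cells were next split by the granzyme genes Gzmc, Gzmd, Gzme, Gzmf and Gzmg, encoding cytotoxic proteases, into cells with 3 or more UMIs of these genes together (Gzm-high) and cells with fewer. In day 12 combination ACT there were 113 Gzm-high cells and 598 others, with median depths of 16411 and 7263.5 UMIs. Fcer1g stood at 665 CPM in the Gzm-high cells and 114 in the others, a log2 ratio of 2.44 [2.31 to 2.58]. Lat2 stood at 102 against 35.1 CPM, a ratio of 1.31 [1.05 to 1.56]. These 2 of the 7 members with enough UMIs were past 2-fold, against 2.36% of 7641 genes. The Gzm-high cells, 113 of 711, held 68.1% of the library's CD8 T cell Fcer1g UMIs.

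The other members were within 2-fold. Tyrobp stood at 53.3 against 36.6 CPM, a ratio of 0.44 [0.14 to 0.74]. Hcst was lower in Gzm-high cells, at 485 against 797 CPM and a ratio of -0.71, and Zap70, Lat and Cd247 had ratios of -0.16, -0.18 and -0.28 beside a median of -0.11 for all genes. Syk had 1 and 19 UMIs, too few to compare. After thinning, 41.6% [32.4 to 51.2] of Gzm-high cells had a Fcer1g UMI against 10.0% [7.74 to 12.7] of the others, while 2.65% and 3.34% had a Tyrobp UMI.

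**Figure D4:**
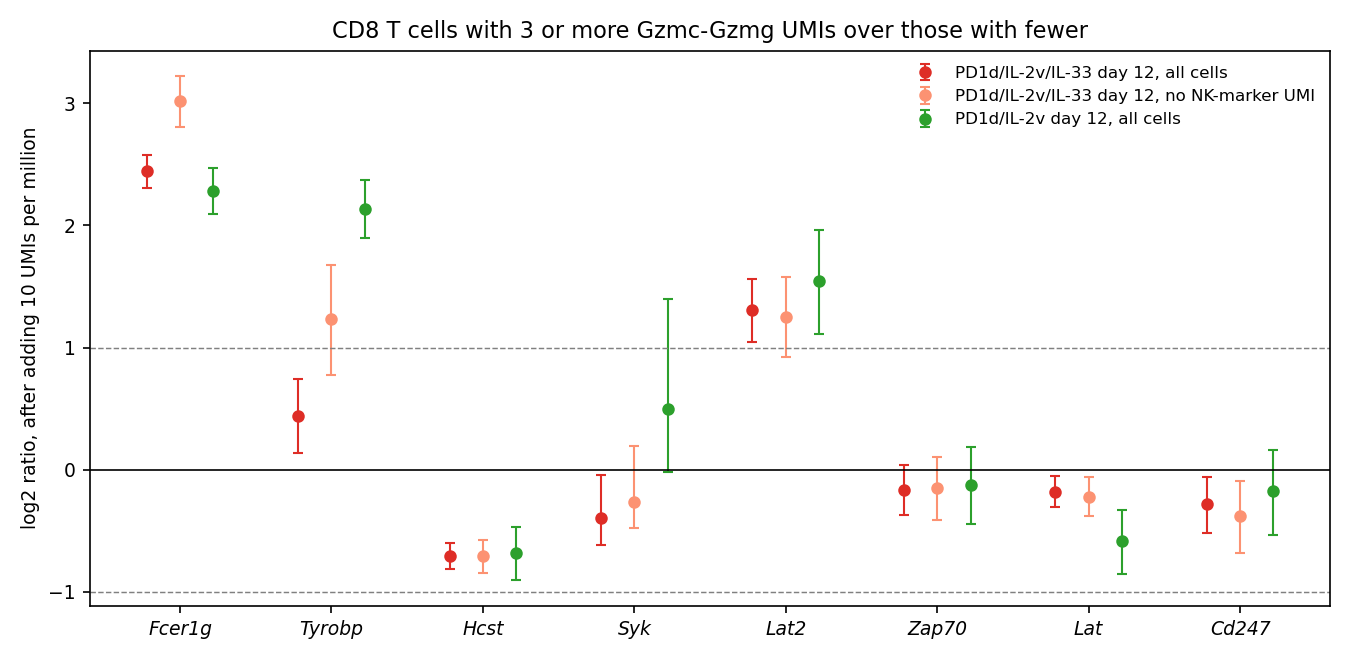
Log2 ratio (after adding 10 CPM) of each member between CD8 T cells with 3 or more Gzmc to Gzmg UMIs and those with fewer, in day 12 combination ACT, in the same library without cells holding NK-marker UMIs, and in PD1d/IL-2v ACT; bars are 95% counting intervals and dashed lines mark 2-fold. Fcer1g (2.44, 3.02 and 2.29) and Lat2 (1.31, 1.25 and 1.55) lie above the upper line in each, and Hcst lies below 0 in each (-0.71, -0.71 and -0.68).

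The difference in Fcer1g was as large without NK-marker cells. In the 72 Gzm-high cells of that library with no NK-marker UMI it stood at 487 CPM against 51.4 in 504 others, a ratio of 3.02 [2.81 to 3.22], and Lat2 at 90.9 against 32.4 CPM. Tyrobp was at 30.9 against 7.42 CPM there, a ratio of 1.23. Its ratio was 1.08 with a stricter CD8 T gate and 1.43 among cells of 10000 or more UMIs, and turned to -1.57 among cells of 15000 or fewer, so no direction is given for Tyrobp. Tyrobp made up 7.42% [6.05 to 8.98] of the UMIs of Tyrobp and Fcer1g in the Gzm-high cells and 24.3% in the others.

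By steps of the granzyme sum the cells just outside the threshold, with 1 or 2 UMIs (93 cells), held 162 CPM of Fcer1g and 41.1 of Lat2, and those just inside, with 3 to 9 (20 cells), held 233 and 88.7. Cells with none (505) held 103 and 33.8 CPM, and cells with 10 or more (93) held 741 and 104. The median depth rose alongside, from 7091 UMIs per cell at none to 16954 at 10 or more, and its part in these levels was not tested. Hcst ran the other way, at 823, 682, 521 and 478 CPM. The cells with 3 to 9 granzyme UMIs also held 118 CPM of Tyrobp and 33.3 of Ncr1, against 41.8 and 3.32 in those with 10 or more.

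In PD1d/IL-2v ACT 28 cells were Gzm-high and 523 were not. Fcer1g stood at 787 against 154 CPM, a ratio of 2.29 [2.10 to 2.47], Lat2 at 119 against 34.2, and Tyrobp at 459 against 96.7, a ratio of 2.14 [1.90 to 2.37]. These Gzm-high cells also held 117 CPM of Ncr1, against 7.77 in those of day 12 combination ACT. In the 18 of them with no NK-marker UMI, Fcer1g stood at 416 CPM [343 to 499] and Tyrobp at 10.9 from 3 UMIs, so Tyrobp made up 2.54% [0.53 to 7.25] of the pair. Leaving out those 10 cells moved the Tyrobp level of the group by over 1.5 times.

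The other libraries had under 20 Gzm-high cells, and their values are given without a ratio. The 16 such cells of day 5 combination ACT held 275 CPM of Fcer1g [214 to 347] and 15.7 of Tyrobp. The 14 of day 5 untransduced ACT held 138 CPM of Fcer1g and 179 of Tyrobp, with 58.4 of Ncr1. The 9 of day 26 combination ACT held no Fcer1g UMI, which allows up to 18.2 CPM, and the 2 of PD1d/IL-33 ACT held none either, which allows up to 279.9 CPM. Fcer1g in Gzm-high cells was thus above the level of all CD8 T cells in 4 libraries, and the few such cells of the other 2 held none.

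Few other pathway genes moved with the split in day 12 combination ACT. Of the T cell receptor list 17 of 18 genes had enough UMIs, and 1 was past 2-fold, the Src-family kinase Fyn, lower at 90.5 against 192 CPM and a ratio of -1.01. The list's median was -0.41 beside -0.11 for all genes. Of the innate list 8 had enough UMIs and 0 were past 2-fold, with Clnk nearest at 0.94, and of the receptors 2 had enough and 0 were past 2-fold.

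The day 12 libraries compare CD8 T cells of combination ACT with those of PD1d/IL-2v ACT and of PD1d/IL-33 ACT. Combination ACT mixed both kinds of cells, so the comparisons do not add 1 cytokine to an otherwise unchanged transfer. Between combination and PD1d/IL-2v ACT 1 member was past 2-fold, Tyrobp, with a ratio of -1.39 [-1.56 to -1.22], against 2.08% of 9022 genes. Over all CD8 T cells Fcer1g was higher by 0.36 [0.26 to 0.47]. Zap70 at -0.64 and Cd247 at -0.72 were lower beside a median of -0.10 for all genes. Split by granzyme UMIs, Fcer1g was lower in combination ACT both in Gzm-high cells and in the others, as given above. That order did not hold for Gzm-high cells with no NK-marker UMI. Gzm-high cells were 113 of 711 CD8 T cells in combination ACT and 28 of 551 in PD1d/IL-2v ACT. The part of this makeup in the ratio was not tested. Without NK-marker cells the member past 2-fold was Fcer1g instead, at 1.03 [0.85 to 1.22], and Tyrobp stood at -0.69. With a stricter CD8 T gate no member was past 2-fold. The 2 libraries came from different runs, so run and treatment cannot be told apart.

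Between combination and PD1d/IL-33 ACT 1 member was past 2-fold, Fcer1g, with 262 against 38.7 CPM and a ratio of 2.48 [2.22 to 2.74], against 1.7% of 8344 genes. It stood at 1.96 without NK-marker cells. Tyrobp at 0.88 and Lat2 at 0.73 were higher, and Cd247 at -0.49 and Hcst at -0.39 lower. Without NK-marker cells Tyrobp was at 12.3 and 12.9 CPM, a ratio of -0.04 [-0.43 to 0.34]. These libraries also came from different runs. Genes of the 3 pathway lists did not pass 2-fold in either day 12 comparison, and the medians of the T cell receptor list were -0.23 and -0.39.

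At day 5 combination and untransduced ACT were compared. None of the 7 members with enough UMIs was past 2-fold, against 3.26% of 8663 genes. The largest ratios were -0.83 for Lat2, with 22.7 against 48.0 CPM, and -0.59 for Tyrobp, and Fcer1g stood at -0.32. Without NK-marker cells Lat2 passed, at -1.06 [-1.34 to -0.77], while Fcer1g at 0.18 and Tyrobp at 0.11 had intervals that included 0. In the lists, Fyn was higher at 250 against 84.7 CPM and Klrk1 lower at 145 against 362 CPM, and 0 genes of the innate list were past 2-fold. Each of these libraries had a run of its own.

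Over time in combination ACT, CD8 T cells went from 54.1 CPM of Fcer1g at day 5 to 262 at day 12 and 11.9 at day 26 (plot of levels by day). From day 5 to day 12 the ratio was 2.08 [1.91 to 2.26], and Fcer1g was the 1 member past 2-fold, against 0.658% of 8820 genes. Lat2 followed at 0.95 [0.70 to 1.19], and at 1.09 when the libraries were scaled by trimmed means (TMM). Tyrobp was at 0.38 and Hcst at 0.40, while Cd247 was at -0.50. No gene of the 3 lists was past 2-fold, and the T cell receptor list had a median of -0.14 beside -0.13 for all genes. Without NK-marker cells Fcer1g was at 1.95 [1.72 to 2.18] and Tyrobp at 0.01 [-0.31 to 0.32].

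**Figure D5:**
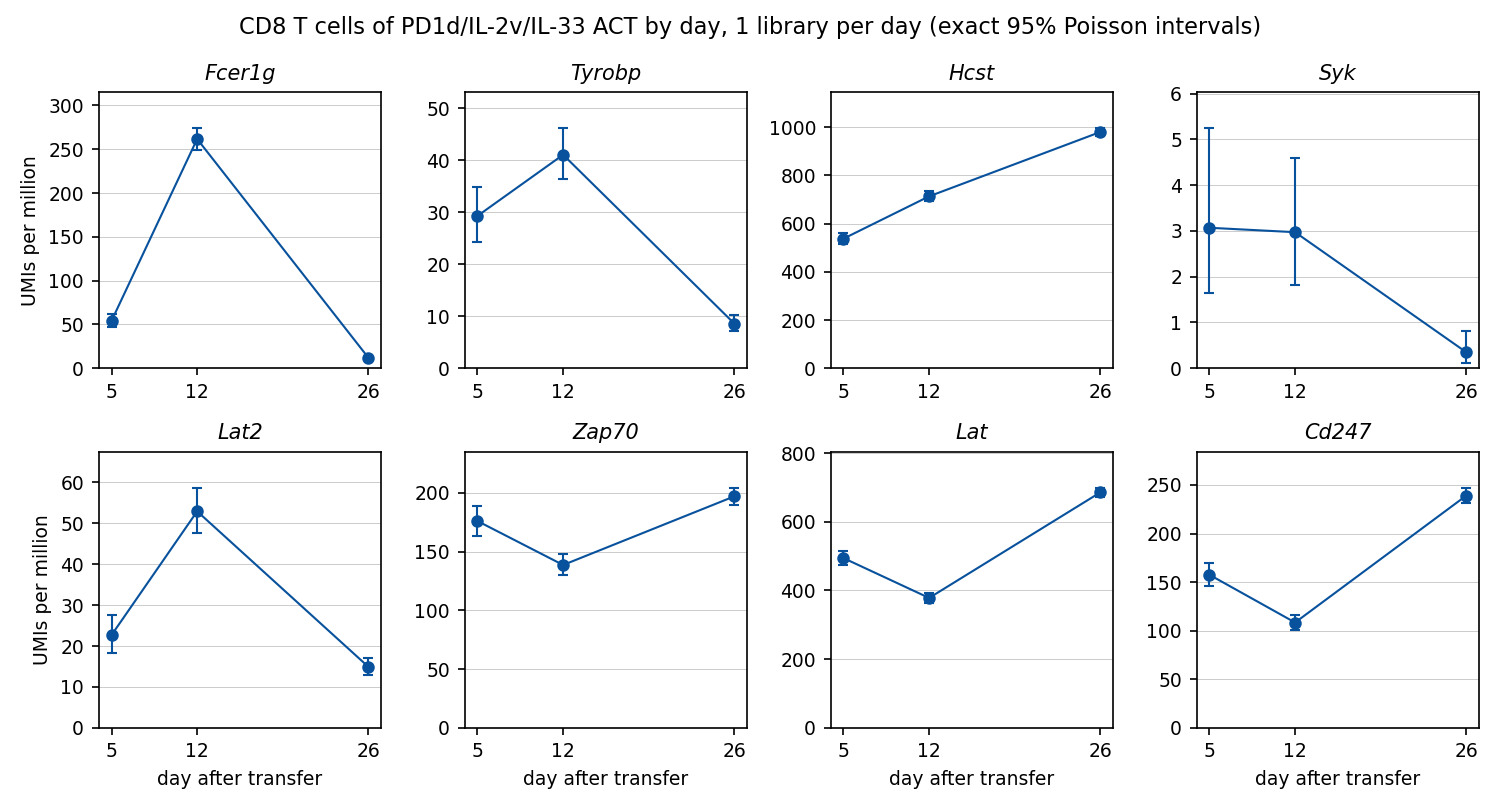
Level of each member (CPM, 1 panel per gene with its own linear axis from 0) in CD8 T cells of combination ACT at days 5, 12 and 26, with exact 95% Poisson intervals and 1 library per day. Fcer1g runs 54.1, 262 and 11.9 CPM, and Cd247 runs the other way at 158, 108 and 239 CPM.

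From day 12 to day 26, 4 members were past 2-fold, against 3.13% of 9820 genes. Fcer1g at -3.63 [-3.77 to -3.49], Tyrobp at -1.46 and Lat2 at -1.34 were lower, and Cd247 was higher at 1.07 [0.97 to 1.18]. The remaining T cell genes and Hcst were higher within 2-fold, with Lat at 0.84, Zap70 at 0.48 and Hcst at 0.45 beside a median of 0.12 for all genes. With TMM scaling Cd247 stood at 0.90, under 2-fold. Without NK-marker cells Fcer1g was at -3.38, Lat2 at -1.15 and Cd247 at 1.03, but Tyrobp at -0.55. Of the T cell receptor list 2 genes were higher, Lck with 757 against 349 CPM and the adaptor Nck1 with 77.3 against 31.8, and its median was 0.52, while 0 genes of the other lists were past 2-fold. The 3 days came from 3 runs, and the comparison of days 12 and 26 shares its day 12 library with the comparisons above.

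In CD4 T cells the adaptors were low wherever Ncr1 was low. Fcer1g ran from 2.58 to 68.0 CPM (median 10.0) and Tyrobp from 4.22 to 149 (median 15.5). Both adaptors exceeded 40 CPM in 3 libraries, non-treated tumors, PD1d/IL-2v ACT and day 5 combination ACT. Ncr1 was highest there, at 63.7, 17.2 and 5.45 CPM. In the 23 cells of non-treated tumors, 1 cell held all 21 Tyrobp UMIs, 1 cell all 9 Ncr1 UMIs and 2 cells the 7 Fcer1g UMIs. Klrb1c followed the adaptors less. It stood at 31.9 CPM in PD1d/IL-2v ACT and 7.01 in day 5 combination ACT. In day 12 untransduced ACT, where both adaptors were low, it stood at 17.5 CPM from 3 UMIs. Without cells holding an NK-marker UMI, Fcer1g stood between 2.59 and 10.3 CPM and Tyrobp between 0 and 12.3 over the libraries. Hcst ran from 475 to 825 CPM, Lat from 425 to 842, Zap70 from 166 to 309 and Cd247 from 154 to 374.

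In CD4 T cells 2 members were past 2-fold between combination and PD1d/IL-2v ACT, against 8.19% of 4567 genes, with Tyrobp at -2.50 and Fcer1g at -2.46. At day 5 between combination and untransduced ACT 3 were past it, against 10.5% of 5191 genes, with Tyrobp at 1.36, Fcer1g at 1.22 and Cd247 at -1.22. Without NK-marker cells the ratios of Fcer1g became -0.45 and -0.35, both with intervals that included 0. Cd247 at day 5 stayed at -1.17 [-1.42 to -0.93], with 158 against 369 CPM. Lat2 at day 5 was then past 2-fold as well, at -1.11 [-1.66 to -0.51] from 14 and 36 UMIs. Between combination and PD1d/IL-33 ACT none of 4 was past 2-fold, against 2.21% of 2937 genes. From day 5 to day 12 in combination ACT Fcer1g at -1.85 and Tyrobp at -2.35 were past it, 2 of 6 members, against 2.08% of 4613 genes. From day 12 to day 26 Cd247 was higher at 1.04, 1 of 4 members, against 5.93% of 5751 genes.

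A split of CD4 T cells by Foxp3, the factor of regulatory T cells, was added after values had been seen. The 397 cells with a Foxp3 UMI held 46.1 CPM of Lat2 [38.7 to 54.6] and the 788 without held 7.40 [4.96 to 10.6]. Hcst stood at 387 and 810.2 CPM, Lat at 575 and 712, Cd247 at 261 and 321 and Zap70 at 232 and 213. Fcer1g stood at 31.2 and 20.4 CPM and Tyrobp at 31.5 and 36.0. Foxp3-positive CD4 T cells thus had the higher Lat2 and the lower Hcst, the same signs as the Gzm-high CD8 T cells. All libraries were pooled for this split, and the median depths were 5723 and 4149 UMIs. The parts of library and depth in these differences were not tested.

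In the same 5 library comparisons no member was past 2-fold between the compared libraries in NK cells, against 3.42%, 2.12%, 4.47%, 0.651% and 9.91% of genes. In myeloid cells only 5 members had enough UMIs in each comparison. None of them was past 2-fold, against 6.39%, 5.96%, 7.07%, 1.89% and 4.48% of genes. The nearest in NK cells were Cd247 at -0.98 between combination and PD1d/IL-2v ACT, with 74.9 against 158 CPM, and Fcer1g at -0.88 between combination and untransduced ACT at day 5, with 1579.8 against 2912 CPM. In NK cells as in CD8 T cells day 12 combination ACT was the lowest library for Cd247, Zap70 and Lat. Its 47.6 CPM of Lat in NK cells lay close to the 49.8 of day 5. Its Syk and Lat2 in NK cells, at 38.1 and 158 CPM, were also lowest, but within counting error of the next libraries. Those held 38.3 CPM of Syk (non-treated tumors) and 161 of Lat2 (day 12 untransduced ACT). In CD8 T cells it held the highest Lat2, at 52.9 CPM, within counting error of the 48.0 in day 5 untransduced ACT.

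The genes whose CD8 T cell levels followed those of Fcer1g most closely over the 8 libraries, by Pearson's r of log2 levels among 8674 genes, were Gzme at 0.92, Gzmd at 0.91, Colgalt1 at 0.91, Upp1 at 0.88 and Cystm1 at 0.87. Tyrobp was nearest to Cxcl2 at 0.95, Serpinb9b at 0.93, Nudt2 at 0.92, Pfdn1 at 0.89 and Il1b at 0.89. Cxcl2 and Il1b encode a chemokine and a cytokine of myeloid cells. Among the members Fcer1g stood at 0.81 with Tyrobp, 0.79 with Lat2, -0.68 with Cd247 and -0.80 with Lat. Each r rests on 8 points that share run, depth and cell makeup, and no test was made.

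Promoter windows of RefSeq (GRCm38.p6, 250 bases before to 50 after the start) were found for 6 members. They were searched on both strands for AGGAAG (an ETS core), TGACTCA (AP-1), TGTGGT (RUNX) and CACGTG (an E-box). AGGAAG occurred in 6 of 9 windows and in 5 of the 6 members, against 35.4% of 32851 windows. TGACTCA occurred in none, against 5.2%. TGTGGT occurred in a window of Zap70, Fcer1g and Lat, against 16.8%, and CACGTG in a window of Zap70 and Lat, against 7.2%. The window of Fcer1g, the member that varied most between CD8 T cells, is shown with its 2 copies of AGGAAG in capitals, 44 and 5 bases before the start. It lies at chr1:171234300-171234599 on the minus strand.
Fcer1g promoter: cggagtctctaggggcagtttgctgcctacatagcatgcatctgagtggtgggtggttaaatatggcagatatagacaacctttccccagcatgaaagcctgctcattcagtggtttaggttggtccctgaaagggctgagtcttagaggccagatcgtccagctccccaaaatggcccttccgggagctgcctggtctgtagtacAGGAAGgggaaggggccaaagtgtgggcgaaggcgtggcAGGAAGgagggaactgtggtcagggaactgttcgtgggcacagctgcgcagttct
A match to these letters is a description of the window and was not tied to any level.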

How the data were processed

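CD45+ tumor cells were profiled by 10x 5′ single-cell RNA-seq in 8 libraries. The authors made the deposited counts, UMIs per gene and barcode, with Cell Ranger 2.2.0 on GRCm38 per the labels (the study's methods name another version), and aggregated the libraries; whether reads were subsampled for this is not given in the sources used here. Barcodes were assigned to libraries by the deposited aggregation table, which names 5 runs. Day 12 untransduced and day 12 combination (PD1d, IL-2v and IL-33) ACT shared a run, as did both single-cytokine ACT libraries, and as did the non-treated tumors with day 26 combination ACT. Each day 5 ACT library had its own. Of 15557 barcode sequences 143 occurred in 2 libraries.

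Cells were kept with 500 to 6000 genes, 2000 to 40000 UMIs, 5% to 60% ribosomal UMIs (87 genes) and under 10% mitochondrial UMIs (13 genes). No doublet caller was run; the gates removed some mixed barcodes. The gates used raw UMIs. NK cells had 2 or more UMIs of Ncr1, Klrb1c, Klra4, Klra7, Klra8 and Klra9 with at most 1 CD3 UMI, CD4 T cells 2 or more CD3 UMIs with Cd4 and no Cd8a or Cd8b1, myeloid cells 3 or more UMIs of Csf1r, Cd68, Cd14, Fcgr1 and Adgre1, and B cells 3 or more of Cd79a, Cd79b and Ms4a1.

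Counts were summed per class and library and given as CPM with exact 95% Poisson intervals; shares have exact Clopper-Pearson intervals, with cells thinned to 2000 UMIs (seed 1). These intervals cover counting error only. With 1 library per condition there is no test. Log2 ratios used 10 CPM added to each level. Python 3.11.15, numpy 2.4.6, scipy 1.17.1 and edgeR 4.0.16 (TMM factors only) were used. Poisson counts were simulated for the day 12 CD8 T cells of combination against PD1d/IL-2v ACT (9022 genes). The true ratio lay inside its interval for 95.5% of 8822 unchanged genes. It did so for 93.0% of 100 genes changed 3-fold and 95% of 100 changed 6-fold. The intervals assume the same Poisson model, so this checks their calculation only. It does not show coverage for real UMIs gathered in few cells. The members, gates and lists were chosen with earlier results of these data known. Named were the members, gate markers, Lyz2, up to 4 genes per list with the largest ratio (some are not reported here), and the 5 genes most correlated with Fcer1g and with Tyrobp.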

Additional observations from a re-analysis of the deposited data

Results flagged for a closer look

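Fcer1g moved in opposite directions in CD8 T and CD4 T cells of combination ACT between days 5 and 12. In CD8 T cells the log2 ratio of day 12 to day 5 was 2.08, with 262 against 54.1 CPM, and in CD4 T cells it was -1.85, with 4.22 CPM from 3 UMIs against 41.3 CPM from 53 UMIs. Past 2-fold in these comparisons were 0.658% and 2.08% of all genes counted. Each day is 1 library and the difference between the classes was not tested. Without cells holding an NK-marker UMI the CD8 T ratio was 1.95 and the CD4 T levels were 4.29 and 5.92 CPM, a ratio of -0.16 [-0.78 to 0.59]. Ncr1 in CD4 T cells stood at 0 UMIs at day 12 and 5.45 CPM at day 5.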

How the results depend on the processing

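Of 82 alternative counts of members past 2-fold, 76 stayed within 1.5 times of the reported one and 6 did not. A pseudocount of 1 CPM gave 2 members in place of 1 for combination against PD1d/IL-33 ACT (Fcer1g and Tyrobp) and for day 12 against day 5 (Fcer1g and Lat2), and 1 in place of 0 for the day 5 comparison (Lat2). TMM scaling also gave 2 for day 12 against day 5 (Fcer1g and Lat2). A stricter CD8 T gate gave 0 in place of 1 against PD1d/IL-2v ACT. Leaving out cells with NK-marker UMIs, an alternative chosen after seeing the data like that of 10000 or more UMIs, gave 1 (Lat2) at day 5. These counts do not show which members pass. Without NK-marker cells the 1 member past 2-fold against PD1d/IL-2v ACT was Fcer1g at 1.03, in place of Tyrobp, then at -0.69. From day 12 to day 26, Tyrobp at -0.55 without NK-marker cells and Cd247 at 0.90 with TMM fell under 2-fold. Of the values of single members 434 stayed inside their reported interval and 158 left it. Counts over all genes grew with the 1 CPM pseudocount, from 423 to 1293 for NK cells, 2113 to 4452 for myeloid cells and 180 to 497 for the Gzm split (68 when split at a sum of 1), and in the library comparisons from 188 to 746, 142 to 449, 282 to 873, 58 to 243 and 307 to 1128 in the order of the report. With TMM the higher and lower calls went from 1200 and 913 to 1438 and 687 for myeloid cells, from 50 and 130 to 65 and 97 for the Gzm split, and in the library comparisons from 92 and 96 to 132 and 65, 97 and 45 to 119 and 31, 150 and 132 to 219 and 84, 31 and 27 to 47 and 16, and 149 and 158 to 86 and 213. The causes were not tested. No paired analysis was possible because each condition and day is 1 library, numbered 1 only by accession order, and for the same reason no replicate could be left out. Depth limits Syk in T cells, and Fcer1g, Tyrobp and Lat2 where under 20 UMIs were counted.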
